A study of Homo sapiens with 4 samples.

Results

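The listed N6-methyladenosine (m6A) sites in exons of 10 genes of growth factor signalling were described, comprising the receptors EGFR, ERBB2, MET, AXL, IGF1R, INSR, FGFR1 and FGFRL1 and the insulin receptor substrates IRS1 and IRS2. A site belonged to a gene when it lay on the gene's strand in an exon of any of its GENCODE isoforms, and 18 of the 18789 sites in the list did. FGFR1 held 8 sites, AXL held 5, FGFRL1 held 4 and IGF1R held 1. EGFR, ERBB2, MET, INSR, IRS1 and IRS2 held none. Over all 20020 protein-coding genes, 19.7% held a site. The RNA was polyadenylated RNA of untreated wild-type C643 cells, an established line of human anaplastic thyroid carcinoma, and all libraries belonged to this group. Sites were mapped by miCLIP2, in which an antibody against m6A is crosslinked to fragmented RNA so that reverse transcription stops at the bound base, and were then predicted with m6Aboost, a classifier that reads the surrounding sequence, the transcript region, the C-to-T transitions and the relative signal strength. There were 4 libraries of 3 biological replicates, pooled by the authors into 1 list with a prediction score between 0 and 1 for each site. No site in the list scored below 0.5. No value per replicate and no read depth per site came with the list, so no replicate error could be given and no test was run. The 95% Wilson intervals printed here cover counting error only. A list of sites holds no expression levels, so the identity of the cells was not checked against marker genes.

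Receptor tyrosine kinases bind growth factors at the cell surface, pair up and phosphorylate one another's tails, to which adaptor proteins dock and pass the signal on to the RAS and PI3-kinase pathways. The insulin and IGF1 receptors act largely through the IRS adaptors, whose many phosphorylated tyrosines recruit PI3-kinase. In the mRNA, m6A is placed mostly at adenosines in the motif DRACH (D is A, G or T, R is A or G, H is A, C or T, written in DNA letters), with GGACT its most familiar form, and is known to be rich in long internal exons, around stop codons and in 3′ UTRs, while coding sequence close to exon junctions carries little of it.

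The sites on which the description turns are shown as windows of 21 nt read 5′ to 3′ on the transcribed strand of GRCh38, with the pentamer in capitals and the listed adenosine at its centre. The first set shows the strongest site of AXL, in the 3′ UTR at chr19:41261704-41261724 on the plus strand, above its coding site with the highest score, at chr19:41257565-41257585 on the plus strand.
AXL 3′ UTR: cagagtgtGGACTctggtgcc
AXL exon 19: gagatttaTGACTatctgcgc
The second set shows the strongest site of FGFRL1, in the 3′ UTR at chr4:1026691-1026711 on the plus strand, above its coding site, at chr4:1025114-1025134 on the plus strand.
FGFRL1 3′ UTR: ggttgcagGGACTgtggtctc
FGFRL1 coding: ggagacaaGGACCttccctcg
The third set shows the lone IGF1R site, at chr15:98707957-98707977 on the plus strand, above the aligned stretch of its paralogue INSR, at chr19:7267478-7267498 on the minus strand, where no site was listed.
IGF1R exon 2: gtgtccaaTAACTacattgtg
INSR aligned: gtggaggaTAATTacatcgtg
The fourth set shows what the adaptors offered without a listed site, the last coding GGACT of IRS1 at chr2:226795169-226795189 and of IRS2 at chr13:109783750-109783770, both on the minus strand.
IRS1 unlisted: ttggtcaaGGACTtcaaacag
IRS2 unlisted: cccaacggGGACTacctcaac
The 2nd AXL and FGFRL1 windows and those of INSR, IRS1 and IRS2 were chosen after the values were seen.

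IRS1 and IRS2 differed from the receptors in gene structure, while the absence of listed sites was shared with 4 of the 8 receptors. The chosen IRS1 transcript (chr2:226731312-226799820, minus strand) has 2 exons and carries its whole coding sequence, 3729 nt, in 1 of them. That of IRS2 (chr13:109752695-109786583, minus strand) has 4012 nt, or 99.9% of its coding sequence, in 1 exon. In the receptors the longest coding part of an exon made up between 9.68% of the coding sequence, in ERBB2, and 29.2%, in FGFRL1. In terms of motifs, 89 of the 91 coding DRACH motifs of the adaptors lay more than 100 nt from an exon junction (97.8%, interval 92.3 to 99.4), against 98 of 536 in the receptors (18.3%, interval 15.2 to 21.8). Among the receptors this share was highest in FGFRL1, 35.0%, and INSR, 33.8%, and was 24.7% in MET, whose longest coding exon part measures 1200 nt, and 6.85% in EGFR.

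None of the 283 DRACH motifs of IRS1 and IRS2 was listed, which allows a share of up to 1.06%. IRS1 offered 178 of them and IRS2 offered 105. None of the 89 coding motifs far from a junction was listed, which allows a share of up to 3.37%, and none of the 177 motifs of the 3′ UTRs was, which allows up to 1.69%. Among their 16 GGACT pentamers, of which 5 were coding and 9 lay in 3′ UTRs, none was listed either. The GGACT shown above for IRS1 lies 191 nt from the junction, and that of IRS2 lies 1719 nt from it.

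The share of motifs listed elsewhere depends on which transcripts are counted. Over all protein-coding genes, 2.56% of the coding motifs far from a junction were listed, and the adaptors' 0 of 89 allows up to 3.37%. That allowance counts each motif separately, although motifs of a gene share its transcript and reads, so it is too narrow to show likeness. Over host transcripts, those that hold at least 1 site, 18.0% of such motifs were listed, but neither IRS1 nor IRS2 is a host. Of the 1175 coding genes with at least as many far coding motifs as IRS2, 11.0% held a site. A share over all protein-coding genes is given for far coding motifs only. The counts of 0 for all motifs together, for 3′ UTR motifs and for GGACT therefore stand without one, also in the receptors without a site. Peaks need reads, and expression in these cells was not analysed here, so an unmodified motif and one with too few reads cannot be told apart for any of the 6 genes without sites.

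The 8 receptors offered 1102 DRACH motifs, of which 16 were listed (1.45%, interval 0.896 to 2.35). In coding sequence 9 of 536 were listed (1.68%, interval 0.886 to 3.16), and in 3′ UTRs 7 of 521 (1.34%, interval 0.652 to 2.75). None of the 45 motifs of the 5′ UTRs of the chosen transcripts was, which allows a share of up to 6.67%. That count depends on the transcript chosen, because the FGFR1 site at position 38468404 lies in the 5′ UTR of the canonical transcript. The coding and 3′ UTR shares lay within each other's intervals, but with only the sites scoring 0.7 or more the coding share was 0.560% (3 of 536) and the 3′ UTR share was still 1.34%, so the order of these shares turned with the score limit. EGFR, the receptor for epidermal growth factor, offered 186 motifs, its relative ERBB2 offered 96, MET, the receptor for hepatocyte growth factor, offered 139, and the insulin receptor INSR offered 178, none of them listed. Together these 599 motifs allow a share of up to 0.501%. EGFR had 1 listed site outside its exons, at position 55019535 of chromosome 7 with a score of 0.742, in the first intron 170 nt after exon 1 and at GGACG, and it was not counted.

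**Figure D1:**
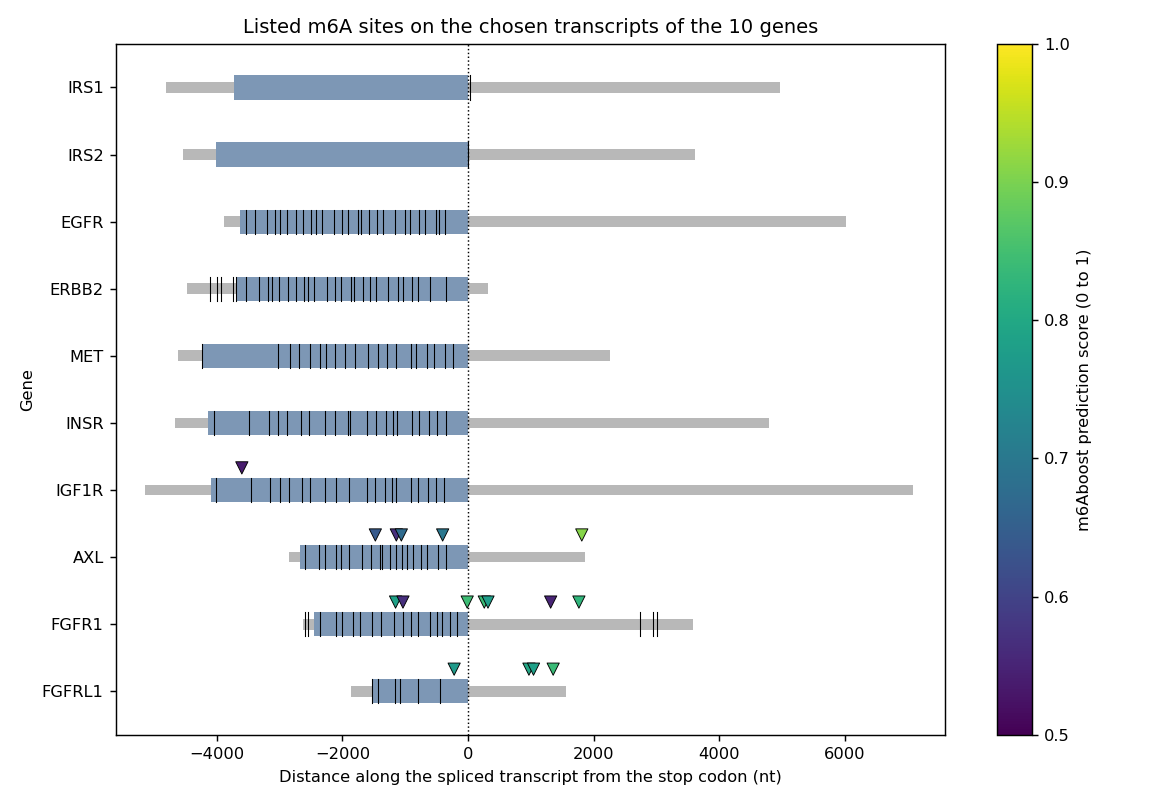
Chosen transcripts of the 10 genes drawn to scale in nt from the stop codon (horizontal axis), with thick bars for coding sequence, thin bars for untranslated regions, vertical ticks for exon junctions and triangles, coloured by prediction score, for listed sites. IRS1 and IRS2 show 1 long coding block and no triangle, while AXL has 4 triangles over short coding exons. The FGFR1 site outside the chosen transcript is not drawn.

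The receptors with a site were AXL, FGFR1, FGFRL1 and IGF1R, and for these the share listed was conditioned on having a site, as it is for the host transcripts. Of the DRACH motifs of all coding hosts, 7.23% were listed. The share was 6.02% in AXL (5 of 83, interval 2.60 to 13.3), 6.35% in FGFRL1 (4 of 63, interval 2.50 to 15.2), 4.92% in FGFR1 (6 of 122, interval 2.27 to 10.3) and 0.426% in IGF1R (1 of 235, interval 0.0752 to 2.37). Among the 1812 coding hosts with at least 50 motifs the median share was 4.70% (quartiles 2.08 and 9.43). AXL, FGFRL1 and FGFR1 lay near the middle of these hosts, above 60.2%, 61.9% and 51.7% of them, and IGF1R lay near the bottom, above 1.49%.

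AXL (chr19:41219223-41261766, plus strand), the receptor for the ligand GAS6, carried 4 of its 5 sites in coding sequence, all in short exons. The site in exon 9 (position 41239236) is a TGACA with a score of 0.640. Exon 13, 96 nt long, held a pair of sites 80 nt apart, a GAACA with a score of 0.568 at 4 nt from the junction and an AGACT with a score of 0.672 at 13 nt. The site in exon 19 is a TGACT with a score of 0.699, 55 nt from the junction. All 4 lay within 100 nt of a junction and all scored below the median of the list, 0.754. The 3′ UTR site at position 41261714 scored 0.909, more than 90.9% of the list, and lay 1812 nt past the stop codon and 52 nt before the transcript's end. Only 1 of the 5 AXL isoforms holds it, while the coding sites are held by 3 or 4. None of the 7 coding GGACT of AXL was listed, and each lies between 3 and 66 nt from a junction.

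FGFR1 (chr8:38400215-38467707, minus strand), a receptor for fibroblast growth factors, carried sites from its first exon to its distal 3′ UTR. The site at position 38468404 of chromosome 8 (GGACT, score 0.735) is absent from the chosen transcript, is held by 16 of 58 isoforms and lies in the 5′ UTR of the canonical one. Exon 11 held a GAACT with a score of 0.786 at 29 nt from the junction, and the first nt of exon 12 was itself listed, an AGACT with a score of 0.567. The remaining 5 sites lay in the exon with the stop codon. The strongest, a GGACT with a score of 0.843 at position 38413643, lay at -13 nt from the stop codon (counted from its first base, negative upstream), and a GGACC (0.841) and a GAACA (0.779) followed at 259 and 318 nt past it. The distal pair differed in score, with 0.550 for a GCACT at 1316 nt and 0.828 for a GGACT at 1766 nt past the stop codon. That GCACT is the only one of the 18 sites outside DRACH, and its 11 central bases are shared with 30 other listed sites, against 0 to 7 for the others.

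FGFRL1 (chr4:1011626-1026898, plus strand) binds fibroblast growth factors but lacks the kinase domain, and its 4 sites all lay in the last exon, 1994 nt long. The coding site at position 1025124, a GGACC with a score of 0.770, lay at -221 nt from the stop codon and 220 nt from the junction. The 3′ UTR held an AGACT with a score of 0.798 at 970 nt past the stop codon, a GGACT with a score of 0.782 at 1043 nt and a GGACT with a score of 0.838 at 1356 nt. All 4 scored above the list's median. None of its 13 coding motifs near a junction was listed, against 1 of the 7 far from one.

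IGF1R (chr15:98648539-98964530, plus strand), the receptor for insulin-like growth factor 1, had its only site at position 98707967 in exon 2 of 21, at codon 167. With a score of 0.538 it was the lowest of the 18 sites and above 6.98% of the list. It thus lay close to the lower end of the listed scores, 0.5. The list held 195 sites at TAACT with a median score of 0.745, and the IGF1R site lay above 6.15% of them. None of the 138 motifs in its long 3′ UTR and none of its 9 GGACT was listed. The aligned proteins of IGF1R and INSR share 803 of 1337 residues (60.1%), and the site's codon aligns with codon 170 of INSR, which encodes the same residue but lies in TAATT, outside DRACH. IRS1 and IRS2, for comparison, share 572 of 1105 aligned residues (51.8%).

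**Figure D2:**
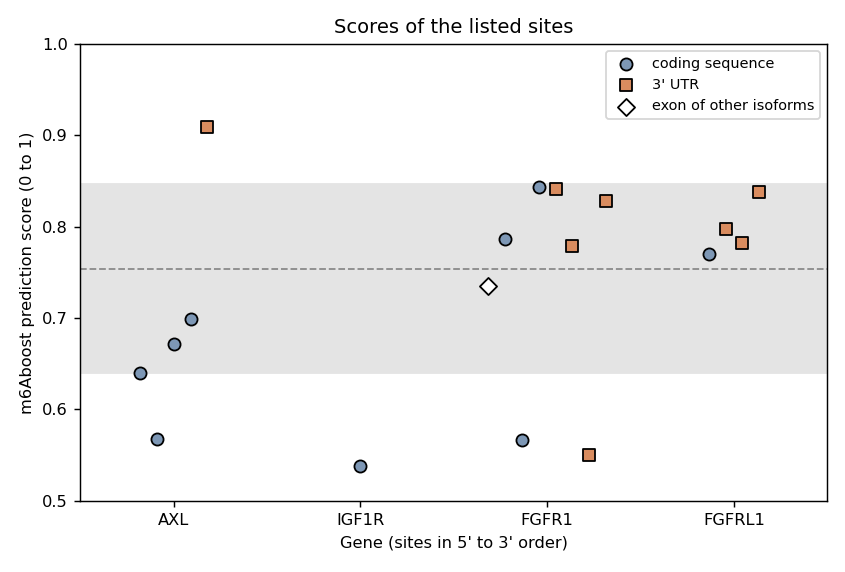
Prediction scores (vertical axis, shown from 0.5 to 1) of the 18 listed sites by gene, in 5′ to 3′ order, with symbols for the transcript region, a dashed line at the median of the whole list and a grey band between its quartiles. The coding sites of AXL lie below the list's median of 0.754 and its 3′ UTR site, at 0.909, is the highest, while the 4 sites of FGFRL1 lie above the median and the IGF1R site, at 0.538, is the lowest.

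By region, 9 of the 18 sites were coding (50%, interval 29.0 to 71.0), 8 lay in the 3′ UTR (44.4%, interval 24.6 to 66.3) and 1 lay outside the chosen transcript. Of all listed sites in coding hosts, 40.4% were coding and 57.1% belonged to 3′ UTRs, and both values lay within the intervals of the receptors. With only the sites scoring 0.7 or more, 3 of 11 were coding (27.3%). The list's 40.4% is over all scores and was not computed at that limit, so it is not set against this share. The 3′ UTR sites of the receptors had a median score of 0.813 and the coding ones 0.672. Of the 9 coding sites, 4 were in AXL, with scores from 0.568 to 0.699. GGACT, with a median of 0.833 in the list, made up 4 of the 3′ UTR sites and 1 of the coding ones. Region and surrounding sequence were both inputs of the classifier, and medians of the list by region were not computed. All 18 had a median of 0.774 (quartiles 0.648 and 0.820), against 0.754 for the list (quartiles 0.640 and 0.847).

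By position relative to the exon junctions, the receptors' coding sites lay mostly close to them, as did 438 of their 536 coding motifs. Of the 9 coding sites, 6 lay within 100 nt of a junction (66.7%, interval 35.4 to 87.9), 4 of them in AXL and 2 in FGFR1. In host transcripts 29.8% of coding sites did (interval 28.6 to 31%). The 4 AXL sites share 1 transcript, and without AXL the share of the receptors was 40.0%. With only the sites scoring 0.7 or more it was 33.3%. Counted by motif, 6 of the 438 coding motifs near a junction were listed (1.37%, interval 0.629 to 2.96), against 2.40% in hosts, and 3 of the 98 far from one (3.06%, interval 1.05 to 8.62), against 18.0% in hosts. These are unlike sets, because hosts all hold a site and 4 of the 8 receptors do not. Over all protein-coding genes 2.56% of far coding motifs were listed, which falls within the receptors' interval. In the 4 receptors with a site 3.19% of near motifs (interval 1.47 to 6.79) and 8.11% of far ones (interval 2.80 to 21.3) were listed. In 3′ UTRs 2.75% of motifs in these 4 were listed (interval 1.34 to 5.56), against 8.59% in hosts. IGF1R alone offered 138 of these 255 motifs, with none listed. The counts were 1 of 25 in AXL, 3 of 57 in FGFR1 and 3 of 35 in FGFRL1.

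**Figure D3:**
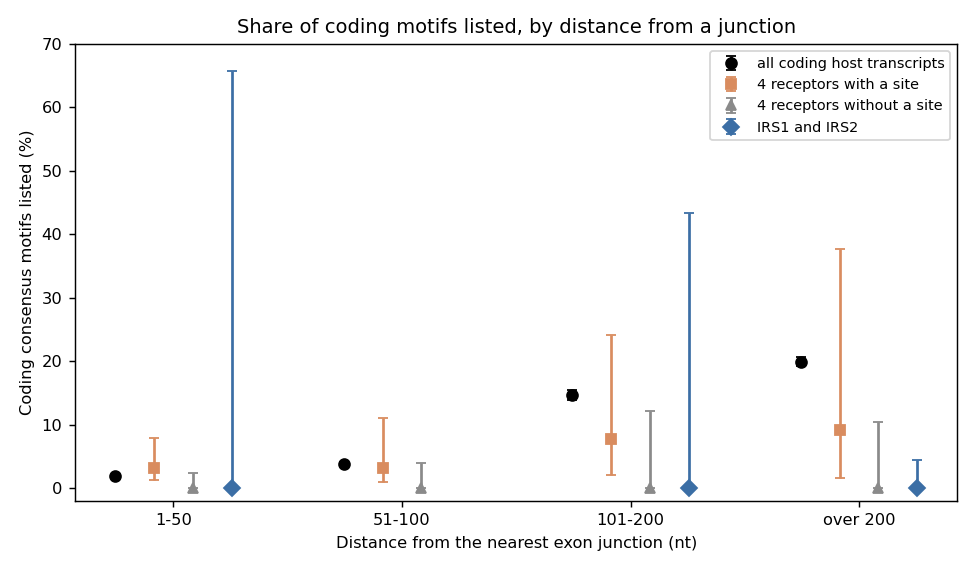
Share of coding DRACH motifs listed (vertical axis, percent) by distance to the nearest exon junction in nt, with 95% Wilson intervals, for host transcripts, the receptors with and without a site, and IRS1 with IRS2. Shares in hosts go from 1.87% at 1 to 50 nt to 19.9% beyond 200 nt, and those of the 4 receptors with a site from 3.17% (4 of 126) to 9.09% (1 of 11). The 4 receptors without a site and the adaptors are at 0 in every bin with motifs, and the adaptors have 2 motifs at 1 to 50 nt and none at 51 to 100 nt.

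By motif, GGACT made up 6 of the 18 sites (33.3%, interval 16.3 to 56.3) with scores from 0.735 to 0.909, and 21.7% of the whole list. AGACT followed with 3 sites, GAACA and GGACC had 2 each, and 17 of the 18 were DRACH (94.4%), against 88.7% of the list. Of the receptors' own GGACT pentamers 5 of 62 were listed (8.06%, interval 3.49 to 17.5), of which 4 of 21 in 3′ UTRs (19.0%, interval 7.67 to 40.0) and 1 of 39 in coding sequence (2.56%). None of the 32 coding GGACT near a junction was listed. In the 4 receptors with a site, 5 of 29 GGACT were listed (17.2%, interval 7.60 to 34.5), of which 4 of 7 in 3′ UTRs (57.1%, interval 25 to 84.2) and none of 16 in coding sequence near a junction. In hosts, which likewise all hold a site, 25.6% of GGACT were listed, with 30.1% in 3′ UTRs and 11.2% in coding sequence near a junction. The 3′ UTR share thus lay below that of hosts over all 8 receptors and above it over the 4 with a site, and the hosts' value fell within both intervals.

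**Figure D4:**
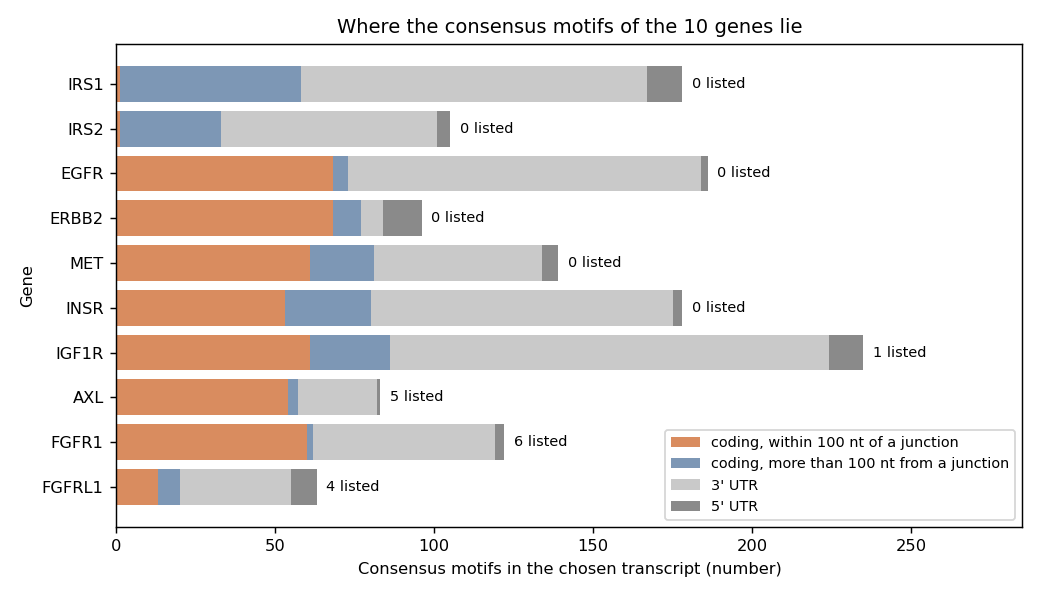
Number of DRACH motifs in the chosen transcript of each gene (horizontal axis, stacked bars), split into coding motifs within and beyond 100 nt of a junction and those of the untranslated regions, with the number listed beside each bar. Nearly all coding motifs of IRS1 and IRS2 are far from a junction, while in AXL 54 of 57 are near one.

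The other genes of receptor tyrosine kinase signalling, from a list of 86 genes, held 137 sites in 24 genes (27.9%). Over all 20020 protein-coding genes 19.7% held a site, and the shares by role below are to be read beside that value. Sites were present in 5 of 32 other receptors (15.6%), in 7 of 19 ligands (36.8%), in 10 of 29 adaptors and effectors (34.5%) and in 2 of 6 brakes on the pathway (33.3%). The most sites were in PTPRF, a receptor phosphatase, with 21, of which 13 were coding, and in PDGFRB, the receptor for platelet-derived growth factor, with 18. VEGFA, a ligand that drives vessel growth, held 13, of which 10 lay in the 3′ UTR. The adaptor SHC1 held 9, of which 3 were coding, and the adaptor DOK1 held 8, of which 7 were coding. Of the sites counted, 4 in SHC1 and all 7 in PIK3R2, a regulatory subunit of PI3-kinase, also lay in exons of another coding gene. IRS4, a relative of IRS1 and IRS2, and the docking proteins GAB1, GAB2, FRS2 and DOK4 held no site. Other adaptors and effectors did, among them CRKL with 6, GRB2 and SH2B1 with 4 each, and FRS3 and SH2B3 with 2 each. PIK3R2, the 5 genes without a site and these further genes with sites were chosen after their values were seen.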

How the data were processed

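miCLIP2 libraries of polyadenylated RNA from C643 cells were made and processed by the authors. Per their methods, reads were aligned with STAR to GRCh38.p12 with GENCODE 31, uniquely mapping reads were deduplicated by molecular identifiers, peaks were called with PureCLIP and kept when found in at least 2 replicates, and those at adenosines were classified with m6Aboost. The submitters' processing notes name STAR 2.7.3a, UMI-tools 1.0.0, SAMtools 1.9 and bedtools 2.27.1. The deposited value per site is the classifier's score, a fraction between 0 and 1, pooled over replicates by the authors. Listed scores start at 0.5. Peaks need reads, so genes with few reads give few sites.

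Here sites were placed on GENCODE 44 and the GRCh38 sequence with Python 3.11.15 and Biopython 1.88. All 18789 positions held an adenosine on their strand, and 17770 lay in an exon of a chosen transcript. One transcript per gene was used for regions, the longest with a support level of 3 or better (or none given) and an annotation level of 2 or better. Every DRACH motif in it was counted, a junction was called near at 100 nt or less, and shares have 95% Wilson intervals. The share that a count of 0 allows is 3 counts of the total and covers counting error only. Motifs of a gene share its transcript and reads, so they are not replicates, and the groups were described without a test. All members were named, with the highest and lowest score, the site nearest the stop codon and any site outside DRACH. Of the pathway genes, the 5 with the most sites were named. The members and the pathway list were chosen with earlier results of these data known. The counting of motifs was tested on simulated data.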

Additional observations from a re-analysis of the deposited data

How the results depend on the processing

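Of 52 alternatives over 12 results, 43 stayed close to the main value. Close meant within its interval or, for the count of member sites, which has none, within a set fold change. With only scores of 0.7 or more, the member sites went from 18 to 11, the coding share of receptor sites from 50% to 27.3%, the share of coding motifs listed in the receptors from 1.68% to 0.560% and that near a junction from 1.37% to 0.228%, and the share of coding receptor sites near a junction from 66.7% to 33.3%. With 200 nt as the limit for near, that last share was 88.9%, with 50 nt 44.4%, without AXL 40.0% and without FGFR1 66.7%; this result and its alternatives were added after seeing the data. With only the receptors that hold a site, 4.0% of coding motifs and 3.19% of those near a junction were listed, and with GGACT alone 19.0% of 3′ UTR motifs were. The cause was not tested, beyond what each alternative leaves out. IRS1 and IRS2 held no site, and no alternative could give them one, because each only narrowed or relabelled the same sites. Their shares of motifs listed therefore stayed at 0 by construction. These alternatives are among the 43 and say nothing on how stable the result is. A further 3 results, their share of coding sites, share at GGACT and median score, have no value. Canonical transcripts in place of the longest moved no value beyond its interval. The receptors' share at GGACT and median score do not depend on the transcript, so this alternative could not change them. They are also among the 43. No paired analysis was possible because the list is pooled over replicates, and for the same reason no replicate could be left out. Depth per site is unknown.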
